A study of Mus musculus with 24 samples.

Results

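The transcription factor DUX was switched on with doxycycline (DOX) in mouse embryonic stem cells labelled TRIM24-KO, and 2 libraries with DOX were compared with 2 libraries without it. These 4 libraries are of 24 in the series and were chosen by their titles. All 24 were made from cells of the KH2 embryonic stem cell line that carry a DUX transgene behind a TRE (DOX-responsive) promoter, so the libraries without DOX hold the transgene too. DOX was given for 16 h, and cells were grown with LIF on gelatin or on growth-arrested embryonic fibroblasts, without a statement of which plate held which sample. The 4 libraries carry TRIM24KO, pLV2 and the number 1 in their titles. What pLV2 stands for is not explained, and the number is read here as 1 knockout line, so that other knockout lines were not sampled. A second question is whether the response to DOX differed from that of wild-type cells with the pLV2 label, for which line 1 and line 2 each had 2 libraries without and 2 with DOX. Groups follow the titles: the 2 TRIM24-KO libraries whose titles name no DOX are tagged as DOX-treated, as part of 8 pLV2 libraries whose tag and title differ. P-values measure the spread between libraries of the same group, estimated over all 16 pLV2 libraries in 8 groups, TRIM33-KO included. Nothing states that the libraries of a group came from separate cultures, so that spread may be technical.

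DUX is a double-homeobox factor of the early mouse embryo that binds and opens regulatory sequence of genes and of MERVL endogenous retroviruses active at the 2-cell stage. In embryonic stem cells it turns on the same genes, and cells in that state are called 2-cell-like. DUXBL is a related double-homeobox protein. TRIM24 belongs to the TIF1 family with TRIM28, TRIM33 and TRIM66, chromatin-bound co-repressors that recruit silencing enzymes to DNA-binding factors, among them retinoic acid receptors for TRIM24 and KRAB zinc finger proteins at retrotransposons for TRIM28.

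The gene counts per library were between 12425916 and 16194995. Dux (Duxf3 in the annotation, chr10:58229979-58232675, GRCm38) had 0 and 0 counts without DOX and 38 and 24 counts with DOX (replicates 1 and 2), which matches the titles and not the tags. Whether these reads came from the transgene or from genomic Dux copies was not separable. Trim24 stood at 136.9 and 123.2 CPM (counts per 1000000 gene counts, scaled by TMM) without DOX and at 123.4 and 120.3 CPM with DOX, between the levels of WT line 1 (94.5 to 100.2 CPM) and WT line 2 (165 to 199 CPM). The transcript level therefore gives no check of the knockout label, since a small deletion need not lower it, and TRIM24-KO below stands for the libraries labelled so. Embryonic stem cell markers were present in all 4 libraries, with Pou5f1 between 638 and 778 CPM and Nanog between 315 and 342 CPM. Of 19 fibroblast genes, the feeder type, 2 had no count in any of the 4 libraries, and the list summed to 67.9 and 69.1 CPM without DOX and 83.6 and 75.1 CPM with DOX.

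The second library with DOX stood apart. CT010467.1, an rRNA-like gene (chr17:39846353-39848827), took 30.4% of its gene counts (95% Wilson interval 30.41% to 30.46%, counting error only), against 0.624% and 1.30% in the libraries without DOX and 0.957% in DOX replicate 1. Without that gene, DOX replicate 2 held 9260658 gene counts, and mitochondrial genes were 21.2% of them, against 14.6%, 15.0% and 16.1% in the other 3 libraries. The plot of library make-up shows these shares.

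**Figure D1:**
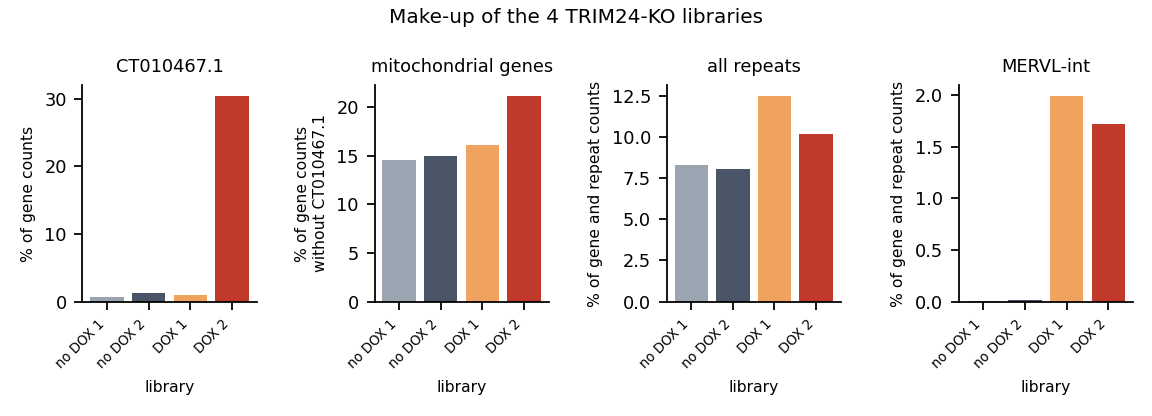
Make-up of the 4 TRIM24-KO libraries. Bars give 1 library each, in percent of the counts named on the axis; CT010467.1 is at 30.4% in DOX replicate 2 and at or under 1.30% in the other libraries, while MERVL-int is near 0 without DOX and at 2.00% and 1.72% with DOX.

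DOX raised 2060 of 18079 tested genes (11.4%) and lowered 882 (4.88%) in TRIM24-KO cells, by edgeR's quasi-likelihood test with a Benjamini-Hochberg adjusted p under 0.05. The rises were large and the falls small: 1251 rising and 96 falling genes passed a 2-fold change, and the median log2 change was 1.86 among rising and -0.44 among falling genes. Of the rising genes, 722 had 3 counts or fewer in each library without DOX. In bulk RNA, a change in the number of responding cells and a change of RNA per cell cannot be told apart. In a fit of the compared groups alone 1412 genes rose and 377 fell. With same-numbered libraries taken as pairs (a replicate block) 2531 rose and 1499 fell. Without DOX replicate 2 the counts were 1567 higher and 371 lower. The falling count also dropped to 514 and 524 when library 1 or 2 without DOX was left out, and was 842 without DOX replicate 1.

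Genes of many kinds stood among the rises with the smallest p-values. The named genes were chosen by p and are not those with the largest changes. Tie1, an endothelial receptor tyrosine kinase, had 1.32 and 0.928 CPM without DOX and 83.0 and 88.7 CPM with it. Its log2 change was 6.25 ± 0.16 (SE, adjusted p = 2.44e-13, edgeR). Each SE given here is the size of the log2 change divided by the square root of the test's F value. It can fall below the counting error where counts are few, as in many risen genes without DOX. P4ha2, a subunit of the collagen prolyl hydroxylase, went from 12.2 and 11.7 CPM to 182 and 201 CPM (log2 4.0 ± 0.11). The libraries with and without DOX did not overlap in any of these genes, which the rule for naming them required. Fgf1, a fibroblast growth factor, had 0.721 and 1.22 CPM without DOX and 95.9 and 122.6 CPM with it (log2 6.79 ± 0.21). Fbxo15, an F-box gene known as a stem cell reporter locus, went from 28.9 and 35.2 CPM to 292 and 334 CPM (log2 3.28 ± 0.10). Glrx2, a mitochondrial glutaredoxin, went from 13.7 and 13.0 CPM to 157 and 152 CPM (log2 3.54 ± 0.11). Arhgef26, a guanine nucleotide exchange factor gene, had 3.42 and 3.71 CPM without DOX and 166 and 258 CPM with it (log2 5.88 ± 0.20). Another pair of genes was at the floor of 3 counts in each library without DOX, so their folds are lower bounds against 3 counts per library. Tmem92, a transmembrane protein gene of the 2-cell stage, had 202 and 243 CPM with DOX and was at least 1255-fold higher. Calhm3, a channel subunit gene, had 61.3 and 70.8 CPM with DOX and was at least 373-fold higher. The plot of values by library sets these genes beside the controls and the repeats.

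**Figure D2:**
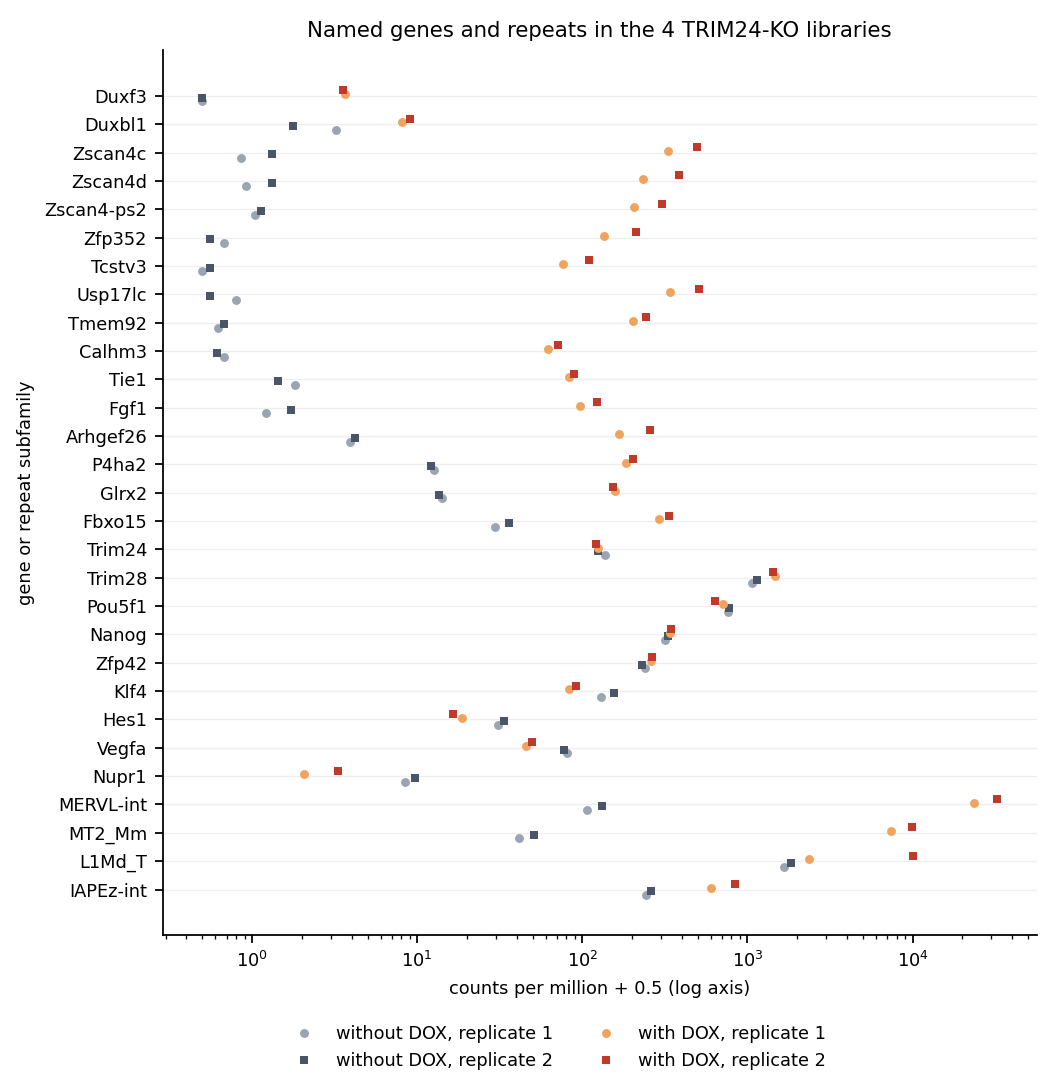
CPM + 0.5 on a log axis for named genes and repeat subfamilies, 1 point per library. Zscan4c, Zfp352, Tcstv3 and MERVL-int stand far to the right with DOX, Trim24, Nanog and Zfp42 keep their place, and L1Md_T is far to the right in DOX replicate 2 alone.

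The multicopy gene families of the 2-cell stage rose as whole lists. All 6 tested Zscan4 genes, which encode telomere-associated zinc finger proteins, were called higher, and their summed level was 2.28 and 5.63 CPM without DOX and 1672 and 2726 CPM with it. Zscan4c (chr7:11005745-11010547) had 6 and 14 counts without DOX and 3956 and 3896 with it, a log2 change of 9.42 ± 0.33. Zscan4d (chr7:11161374-11166159) changed by 8.94 ± 0.37, and Zscan4-ps2, annotated as protein-coding, by 8.73 ± 0.29. All 8 Tcstv and Tdpoz genes were called, all from the floor, among them Tcstv3 with 0 and 1 count without DOX and 911 and 858 counts with it, at least 521-fold higher. All 5 Usp17l deubiquitinase genes rose, led by Usp17lc, with 5 and 1 counts without DOX and 4096 and 4000 with it (log2 11.15 ± 0.33). All 9 Eif1a-like genes, copies of a translation initiation factor, rose by a median log2 of 8.99, or 8.50 with the genes at the floor set to their bound. Copies in these families are near-identical, and how reads with several matches were counted is not given in the sources used here, so values of single copies are uncertain.

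Other genes of that stage were less uniform. Counts in its lists stand against 11.4% of all tested genes that rose and 4.88% that fell. Of 14 single-copy genes linked to it, 9 rose and 1 fell. Zfp352, a zinc finger gene of the 2-cell embryo, had 3 and 1 counts without DOX and 1626 and 1665 with it, at least 977-fold higher. Sp110, a nuclear body protein gene, went from 0.240 and 0.986 CPM to 383 and 575 CPM (log2 9.57 ± 0.35), and Nelfa, a subunit of the negative elongation factor, from 52.2 and 60.5 CPM to 624 and 888 CPM (log2 3.75 ± 0.14). Tbx3, a T-box factor expressed in stem cells, fell from 168 and 203 CPM to 126 and 129 CPM (log2 -0.54 ± 0.08, adjusted p = 1.46e-04). Of 12 listed Prame genes 8 were tested and 6 rose, with Pramef25 highest in log2 change at 9.77 ± 0.33. Of 6 listed Obox homeobox genes 3 were tested and all 3 were called higher. Obox3 had 0 and 0 CPM without DOX and 0.414 and 2.03 CPM with it. All 3 had 3 counts or fewer in each library without DOX, as had 3 of the 8 Prame and 4 of the 14 single-copy genes. Such genes could be called higher but hardly lower, so their calls cannot be weighed against the share of all tested genes. With 1 library left out 5 Obox genes passed the filter on low counts, of which 0 were called without DOX replicate 2, 5 without DOX replicate 1 and 1 when library 1 or library 2 lacking DOX was left out. In a fit of the compared groups alone none was tested. DOX replicate 2 had the larger absolute log2 change, whatever its sign, in 76.4% of the rising genes. The median signed change was 1.30 against 1.05 for DOX replicate 1 (each against the mean without DOX, pseudocount 0.5 CPM). Over all tested genes the share was 60.1%, with medians of -0.0080 and 0.0073.

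Of the double-homeobox genes other than Dux, 1 was called. Duxbl1 (chr14:25978577-25990088) rose from 2.7 and 1.28 CPM to 7.54 and 8.52 CPM (log2 2.00 ± 0.30, adjusted p = 1.29e-04). Duxbl3 had 0.661 and 0.870 CPM without DOX and 0.166 and 2.42 CPM with it, so the groups overlapped (log2 0.55 ± 0.93, adjusted p = 0.766). Duxbl2 had 2 counts in 1 library and was not tested.

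The DNA letters known as the core of DUX sites, GATTNAATC, were searched in RefSeq promoters (GRCm38.p6), 250 bases before to 50 after each start. The string reads the same on both strands. It was present for 17 of 1129 risen genes with a promoter in that table (1.51%), 14 of 519 that rose at least 2-fold (2.7%), 2 of 651 that fell (0.307%) and 32 of 11616 tested (0.276%). Of all 32851 promoters in the table, 0.268% held it. Among the 17, the match of 12 lay between 100 and 160 bases before the start. Of the 10 named rising genes, 5 had a promoter in the table (Tie1, P4ha2, Usp17lc, Glrx2 and Arhgef26), and 0 of these 5 had a match. The windows below, 59 bases each, 5′ to 3′ on the gene's strand with the match in capitals, show the 5 risen genes with a match and the smallest p, and Dux itself; they were chosen after their values were seen.
Gm21761, chr13:119913560-119913618, minus strand: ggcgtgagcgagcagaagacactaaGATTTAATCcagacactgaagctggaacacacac
AF067061, chr13:120262945-120263003, plus strand: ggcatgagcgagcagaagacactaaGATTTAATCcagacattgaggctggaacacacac
Gm4340, chr10:104193871-104193929, plus strand: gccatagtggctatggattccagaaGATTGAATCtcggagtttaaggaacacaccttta
Pemt, chr11:60040304-60040362, minus strand: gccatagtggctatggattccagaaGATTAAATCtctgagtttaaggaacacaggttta
Gm13043, chr4:143511182-143511240, plus strand: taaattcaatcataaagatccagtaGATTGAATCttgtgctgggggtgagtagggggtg
Duxf3, chr10:58233195-58233253, minus strand: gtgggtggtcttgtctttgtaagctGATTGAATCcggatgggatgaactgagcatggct
The windows of Gm21761 and AF067061 shared 56 of 59 bases, and those of Gm4340 and Pemt shared 55 of 59, although the latter pair lies on different chromosomes. Windows of unlike genes shared at most 25 of 59. Pemt, which encodes the phosphatidylethanolamine methyltransferase of the liver, had 2.10 and 1.62 CPM without DOX and 30.0 and 30.1 CPM with it. Gm4340 had 0 and 0.580 CPM without DOX and 227 and 338 CPM with it. A match describes letters and not a bound site.

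Risen genes also differed from the tested genes in kind. Pseudogenes were 6.06% of tested genes, 14.7% of risen genes, 22.6% of genes that rose at least 2-fold and 0.680% of fallen genes. Protein-coding genes were 78.8% of the tested, 67.9% of the risen and 94.2% of the fallen. The median exonic length was 3624 bases over tested genes, 2916 over risen and 5300.5 over fallen genes. Of the 2060 risen genes, 722 were at the floor defined above in each library without DOX. Genes at the floor could be called higher but hardly lower, so risen and fallen genes were not drawn from the same pool. The part of this limit in the shares and lengths was not tested.

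Lrp1, a large endocytic receptor, went from 302 and 329 CPM to 188 and 196 CPM (log2 -0.72 ± 0.07, adjusted p = 4.45e-07). Nupr1, a small stress-induced nuclear protein gene, went from 7.99 and 9.22 CPM to 1.57 and 2.80 CPM (log2 -2.05 ± 0.21). Notch4, a Notch receptor, fell by 0.78 on the log2 scale, and Hes1, a Notch target repressor, fell by 0.89, from 30.5 and 33.1 CPM to 18.3 and 15.9 CPM. Vegfa, the vascular growth factor, went from 80.2 and 77.0 CPM to 45 and 48.9 CPM (log2 -0.75 ± 0.09). In each of these genes the libraries with and without DOX did not overlap, which the rule for naming them required. The other falls named by that rule were Dnah8, a dynein heavy chain (log2 -0.83), Slc7a1, a cationic amino acid transporter (-0.60), Klf4, a pluripotency factor (-0.70), Kat2b, a histone acetyltransferase (-0.55), and Sars, the seryl-tRNA synthetase (-0.64).

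Pluripotency genes stayed expressed. Of 19, 7 fell, 2 rose and 10 were not called, against 4.88% of all tested genes that fell and 11.4% that rose, with a median log2 change of -0.15 beside -0.0028 over all tested genes. Klf4 went from 129 and 154 CPM to 82.7 and 91.6 CPM. Prdm14, a repressor that guards naive pluripotency, fell from 10.6 and 14.0 CPM to 5.80 and 7.24 CPM (log2 -0.94 ± 0.16, adjusted p = 3.47e-04), and Tfcp2l1 fell by 0.39 on the log2 scale. Dppa2, a known activator of Dux, rose from 79.2 and 83.5 CPM to 242 and 282 CPM (log2 1.69 ± 0.08), and Sall4 rose by a log2 of 0.32. Pou5f1 (log2 -0.19, adjusted p = 0.0765), Nanog (0.08, adjusted p = 0.547) and Zfp42 (0.16, adjusted p = 0.426) did not pass the test. Pou5f1 was called lower in 6 of 12 alternatives, among them RLE factors (-0.21, adjusted p = 0.0482), DESeq2 (-0.21, adjusted p = 0.0194) and leaving out DOX replicate 1 (-0.29, adjusted p = 0.0231). Of the 19 genes 4 fell and 2 rose without DOX replicate 2, and 3 fell in a fit of the compared groups alone.

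Trim24 had a log2 change of -0.09 ± 0.10 (adjusted p = 0.592). Trim28 went from 1057 and 1134 CPM to 1470 and 1426 CPM (log2 0.40 ± 0.06, adjusted p = 1.17e-04). Trim33 had a log2 change of -0.17 (adjusted p = 0.0978). By edgeR it was called lower without CT010467.1 (-0.20, adjusted p = 0.0490) and with a replicate block (-0.17, adjusted p = 0.0208). Trim66 was called lower (adjusted p = 0.0378) on 5 and 12 counts without DOX and 1 and 0 with it, and was not called without DOX replicate 1, DOX replicate 2 or library 2 lacking DOX, or with DESeq2 (adjusted p = 0.128). In a fit of the compared groups alone Trim66 was not tested. Of 24 repressor genes, Trim28 among them, 3 rose and 1 fell, against 11.4% and 4.88% of all tested genes. The falls numbered 2 with RLE factors, DESeq2 or without DOX replicate 1, and 3 without CT010467.1. The fall was in Mga, a subunit of a non-canonical Polycomb complex (log2 -0.34), and the rises beside Trim28 were in Rif1 (0.28) and Setdb1 (0.25), a histone methyltransferase that acts with Trim28. Setdb1 kept its call in 4 of 12 alternatives and had a log2 change of 0.13 (adjusted p = 0.373) without DOX replicate 2 and 0.18 (adjusted p = 0.263) without library 1 lacking DOX. Without library 2 lacking DOX 1 repressor gene rose, since neither Setdb1 nor Rif1 (0.21, adjusted p = 0.121) was called.

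Genes of the integrated stress response, which ATF4 drives when amino acids are short, fell more often than they rose. Of 20 tested, 10 fell, 2 rose and 8 were not called, with a median of -0.21, against 4.88% of all tested genes that fell and 11.4% that rose. Gpt2, an alanine transaminase, went from 61.1 and 63.6 CPM to 38.5 and 39.4 CPM (log2 -0.68 ± 0.09, adjusted p = 4.46e-05). Psat1, of serine synthesis, went from 200 and 207 CPM to 138 and 138 CPM (-0.56 ± 0.07), and Asns, the asparagine synthetase, from 176 and 173 CPM to 130 and 136 CPM (-0.40 ± 0.10). Atf4 itself fell by 0.22 (adjusted p = 0.0406). The 2 rises were Ppp1r15a, the phosphatase subunit that ends the response (log2 0.84 ± 0.10), and Ddit4, an inhibitor of mTORC1 (0.49 ± 0.14). Ddit4 was not called without library 2 lacking DOX (0.37, adjusted p = 0.206) or without DOX replicate 1 (0.35, adjusted p = 0.205). The falling count was 6 without DOX replicate 2, 6 without library 1 lacking DOX, and 11 without DOX replicate 1.

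Of 14 tested retinoic acid genes, 4 rose and 1 fell, against 11.4% and 4.88% of all tested genes. The nuclear receptor Rxra went from 25.4 and 27.3 CPM to 119 and 128 CPM (log2 2.22 ± 0.10, adjusted p = 3.95e-11), and Rarg rose by 0.41. Rara fell from 53.7 and 54.0 CPM to 35 and 32.1 CPM (-0.67 ± 0.10). Aldh1a2, which makes retinoic acid, rose from 0.541 and 0.928 CPM to 3.56 and 4.96 CPM (2.49 ± 0.38). Stra8, a target of the pathway, had 4.75 and 4.47 CPM without DOX and 4.39 and 5.34 CPM with it and was not called.

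In the TGF-beta, Nodal and BMP list, 1 of 21 genes rose and 3 fell, against 11.4% and 4.88% of all tested genes. Id3, a BMP target, rose from 5.77 and 7.08 CPM to 31.7 and 26.7 CPM (log2 2.19 ± 0.17). The ligands Nodal (0.20) and Bmp4 (-0.17) were not called. The falls were the receptor Acvr1b (-0.49), the inhibitor Smad7 (-0.36) and the ligand Gdf3 (-0.39), and 1 gene of the list fell without DOX replicate 2. The falling count was 5 with RLE factors or with library sizes that hold repeats, and 6 without CT010467.1, and 2 genes rose without library 1 lacking DOX or with no filter.

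The other lists are to be read against the 11.4% of all tested genes that rose and the 4.88% that fell. Of 19 tested p53 genes 4 rose and 3 fell, with Pmaip1, a pro-apoptotic BH3 gene, at 66.5 and 65.8 CPM without DOX and 122 and 119 CPM with it (log2 0.86 ± 0.12). The p53 rises numbered 1 without library 2 lacking DOX and 2 without library 1 lacking DOX or DOX replicate 1, and the falls numbered 1 without library 1 lacking DOX or DOX replicate 2. With DESeq2 1 p53 gene fell, and in a fit of the compared groups alone 0 did. Of 14 tested interferon genes 1 rose and 2 fell, and without DOX replicate 2 or library 1 lacking DOX 0 rose and 1 fell, as in a fit of the compared groups alone. Without library 2 lacking DOX 0 interferon genes fell, with DESeq2 or a filter at a mean of 10 counts 1 fell, and with no filter 4 fell. Of 22 nucleolar genes 5 rose, among them Taf1d, a subunit of the rRNA promoter factor (0.55 ± 0.08). Without library 2 lacking DOX 2 nucleolar genes rose and 1 fell, and without DOX replicate 1 3 fell. The nucleolar rises numbered 3 without CT010467.1, with no filter or with the compared groups alone. Of 26 splicing genes 2 rose, Srsf5 by 0.85 and Srsf6 by 0.32. Srsf6 was not called without library 2 lacking DOX (log2 0.20, adjusted p = 0.265) or without DOX replicate 1 (0.27, adjusted p = 0.101). Of 22 cell cycle genes 3 rose and 2 fell, and 0 rose without library 2 lacking DOX, while 1 fell without library 1 lacking DOX, without DOX replicate 2 or with the compared groups alone. Of 18 glycolysis genes 3 fell, and 1 fell without DOX replicate 2. Of 13 mitochondrially encoded genes 6 rose, with a median of 0.52, and mt-Cytb went from 1844 and 1802 CPM to 2590 and 3073 CPM. Of those 6, 1 was called without DOX replicate 2, the library with the high mitochondrial share, and 1 without library 2 lacking DOX, while with no filter 10 rose and 1 fell.

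Lists of markers of other cell types differed in their calls. By edgeR 0 of 9 tested trophoblast genes and 0 of 10 primitive endoderm genes were called; 0 and 4 had an unadjusted p under 0.05, and DESeq2 called 0 and 0. Primitive endoderm genes were called under other alternatives, with 3 higher without DOX replicate 1, 1 higher without library 2 lacking DOX, and 2 higher and 1 lower with no filter. Without DOX replicate 2, 1 trophoblast gene was higher. Of 6 germ layer genes 1 rose and 2 fell, against 11.4% and 4.88% of all tested genes, with Sox1, a neural factor, at 2.22 and 3.42 CPM without DOX and 0.414 and 0.254 CPM with it (log2 -2.98 ± 0.48). The other fall, in Otx2, was not called without DOX replicate 1, DOX replicate 2 or library 2 lacking DOX (adjusted p from 0.0881 to 0.138) or with the compared groups alone (0.0767), and the rise, in Nes, was not called without library 2 lacking DOX (0.0508). Of 11 tested fibroblast genes 2 rose, Col1a1 (0.781 and 1.22 CPM to 4.22 and 3.56 CPM) and Thy1 (9.73 and 10.3 CPM to 18 and 15.2 CPM), and Loxl1 fell, a call lost when any 1 of the 4 libraries was left out. The part of feeder cells in these values was not tested.

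**Figure D3:**
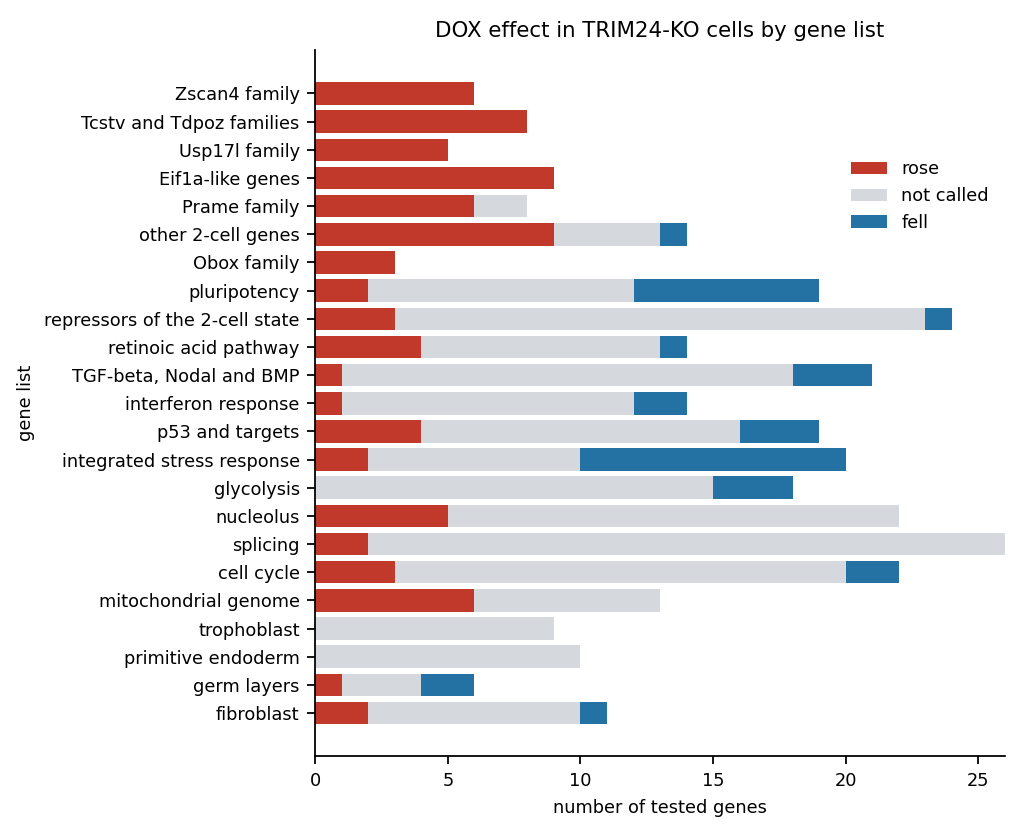
Number of tested genes in each list that rose, were not called or fell with DOX in TRIM24-KO cells. The Zscan4, Tcstv and Tdpoz, Usp17l and Eif1a-like lists rose whole, and the integrated stress response has the most falling genes, 10 of 20.

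Repeats rose more broadly than genes. Of 965 tested repeat subfamilies 540 (56.0%) were called higher and 7 (0.725%) lower, with a median log2 change of 0.56. MERVL-int, the internal part of the MERVL retrovirus, had 106 and 132 CPM without DOX and 23464 and 32470 CPM with it, a log2 change of 7.88 ± 0.21 (adjusted p = 4.38e-14). Its share of all gene and repeat counts was 0.0103% and 0.0129% without DOX and 2.00% and 1.72% with it. MT2_Mm, its long terminal repeat, went from 40.9 and 50.8 CPM to 7400 and 9907 CPM (7.56 ± 0.21). These were the smallest p-values among repeats. GSAT_MM, the major satellite of pericentromeric DNA, went from 4.69 and 5.40 CPM to 143 and 237 CPM (log2 5.22 ± 0.25). The other rises named by the rule were MuRRS-int (3.79), MERVL_2A-int (3.21), MT2B1 (3.03) and RLTR9A3A (5.61).

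The retroelements set for description regardless of their change ranged widely. IAPEz-int, a young retrovirus silenced through Trim28, went from 243 and 262 CPM to 598 and 839 CPM (log2 1.51 ± 0.12). ETnERV-int had 1744 and 1774 CPM without DOX and 1686 and 1767 CPM with it (log2 -0.03, adjusted p = 0.799). L1Md_A, a young LINE-1, had 315 and 426 CPM without DOX and 779 and 1394 CPM with it (1.55 ± 0.21). L1Md_T, another young LINE-1, had 1653 and 1831 CPM without DOX, 2357 CPM in DOX replicate 1 and 10120 CPM in DOX replicate 2. Its log2 change was 1.84 ± 0.41, and 0.44 (adjusted p = 0.091) without DOX replicate 2, so 1 library decided it. MMVL30-int (1.67), RLTR6_Mm (1.26) and ORR1A3-int (1.25) also rose.

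Against 56.0% of all 965 tested subfamilies, the share called higher was 70.1% of 271 ERVK, 74.7% of 91 ERVL-MaLR and 69.3% of 127 L1 subfamilies. Near that share were ERV1, with 57.3% of 103, and ERVL, with 51.6% of 95. Below it were Alu (B1), with 25% of 16, and hAT-Charlie, with 19.1% of 68. Without DOX replicate 2 the number called higher was 162 in place of 190 ERVK, 57 in place of 68 ERVL-MaLR, 69 in place of 88 L1, 44 in place of 59 ERV1 and 40 in place of 49 ERVL subfamilies. It was 3 in place of 4 in Alu and 8 in place of 13 in hAT-Charlie. MERVL belongs to ERVL, whose median log2 change of 0.72 was below that of ERVK, 0.85. DOX replicate 2 had the larger absolute change in 92.4% of the rising subfamilies, with a median signed log2 of 1.16 against 0.81 for DOX replicate 1. Over all tested subfamilies the share was 78.5%, with medians of 0.64 and 0.40. Without DOX replicate 2 the median log2 change over all tested subfamilies was 0.44. The 3 named falls, RMER12B (-0.50), HERVL74-int (-0.75) and MARNA (-0.42), each lost the call when DOX replicate 1 was left out. RMER12B kept its call in 10 of 12 alternatives, and HERVL74-int and MARNA in 7 of 12. The latter pair was not called with DESeq2 (adjusted p = 0.0648 and 0.113) or by edgeR with the compared groups alone (0.0609 and 0.132).

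**Figure D4:**
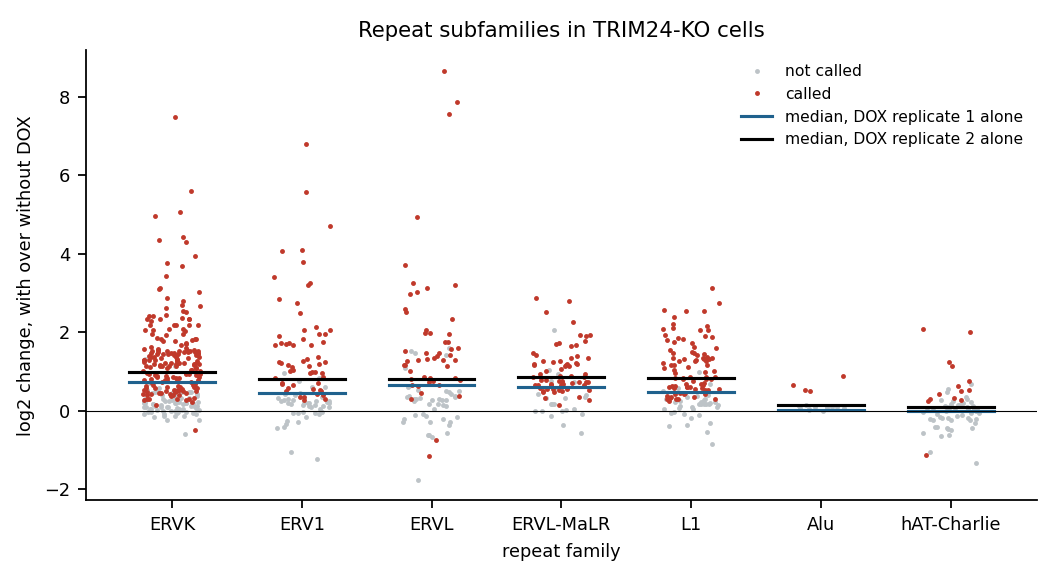
Log2 change of each repeat subfamily with over without DOX, 1 point per subfamily, by family. The black bar (DOX replicate 2 alone) lies above the blue bar (DOX replicate 1 alone) in all 7 families, and the 3 highest ERVL points are MLT2E, MERVL-int and MT2_Mm.

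The DOX response of TRIM24-KO cells was then set against the mean of the responses in WT line 1 and WT line 2, by an interaction term. Of 18079 genes, 57 responded more positively in TRIM24-KO cells (0.315%) and 13 more negatively (0.0719%). The median difference over all tested genes was 0.05. Of 53 tested genes of the 2-cell lists above 0 were called, and DESeq2 called 1 of the 44 it gave an adjusted p. By edgeR 6 had an unadjusted p under 0.05, 2 higher and 4 lower. The difference was positive in 0 of 6 Zscan4, 1 of 5 Usp17l, 1 of 9 Eif1a-like and 2 of 8 Prame genes. It was positive in 6 of 14 single-copy, 5 of 8 Tcstv and Tdpoz and 2 of 3 Obox genes. The SE was 1.33 for Zfp352 and 2.13 for Tcstv3, both at the floor without DOX. The lack of calls therefore does not show an equal response. Zscan4c differed by -0.84 ± 0.66 (adjusted p = 0.798). Dux stood at 3.15 and 3.05 CPM with DOX in TRIM24-KO, 7.23 and 8.32 CPM in WT line 1 and 4.43 and 3.95 CPM in WT line 2. The 2 WT lines differed from each other too, with Zscan4c at a log2 change of 8.11 in line 1 and 12.42 in line 2, around 9.42 in TRIM24-KO. The value of line 2 rests on few counts, with 0.291 and 0.0613 CPM without DOX against 1.51 and 1.22 CPM in line 1. With DOX Zscan4c had 344 and 413 CPM in line 1 and 1268.5 and 893 CPM in line 2.

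Of the 57 genes with the more positive response, 47 rose in TRIM24-KO cells, and in all 57 the TRIM24-KO change lay above that of both WT lines. Dhcr7, the last enzyme of cholesterol synthesis, had 35.6 and 38.0 CPM without DOX and 134 and 150 CPM with it, a log2 change of 1.94, against 0.78 and 0.59 in WT lines 1 and 2 (difference 1.25 ± 0.12, adjusted p = 4.17e-04). Rimklb, an N-acetylaspartylglutamate synthase gene, changed by 2.98 against 2.01 and 1.78 (difference 1.09 ± 0.12). Glrx2 changed by 3.54 against 2.61 and 2.27 (1.09 ± 0.14). Grb2, an adaptor of receptor tyrosine kinases, went from 87.8 and 81.9 CPM to 182 and 192 CPM, and its log2 change of 1.14 stood against 0.37 and 0.61 (0.65 ± 0.08). Robo1, a Slit receptor, changed by 2.98 against 1.52 and 1.92 (1.26 ± 0.16), and Fbln1, a matrix fibulin, by 1.05 against 0.25 and 0.23 (0.81 ± 0.11). Fbln1 had 17.5 and 20.6 CPM without DOX against 35.9 to 48.3 CPM in the WT libraries. The summed fibroblast list was also lower there, at 67.9 and 69.1 CPM against 112 to 129 CPM, and stood at 83.6 and 75.1 CPM with DOX against 102 to 124 CPM; its part in such differences was not tested.

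Levels without DOX differed as well. Robo1 had 27.0 and 34.7 CPM without DOX in TRIM24-KO against 59.8 to 81.1 CPM in the 4 WT libraries, and 202 and 288 CPM with DOX against 216 to 241 CPM. Among the 57 genes, 29 (50.9%) lay below all 4 WT libraries without DOX, against 22.9% of all tested genes, and 35 (61.4%) lay above all 4 WT libraries with DOX, against 21.9%. The test of the response and these levels share their libraries, so the counts describe the calls and do not add to them.

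Genes with a more negative response were fewer. Nupr1 fell by 2.05 on the log2 scale in TRIM24-KO cells and changed by -0.20 and -0.37 in WT lines 1 and 2 (difference -1.76 ± 0.23, adjusted p = 2.18e-03). Duxbl1 rose by 2.00 in TRIM24-KO against 4.47 and 4.28 in the WT lines (-2.37 ± 0.44, adjusted p = 0.0261). Its level with DOX was 7.54 and 8.52 CPM in TRIM24-KO and 8.86 to 13.5 CPM in the WT libraries, and without DOX 2.7 and 1.28 CPM against 0.242 to 0.797 CPM. The Duxbl1 call was lost in 8 of 22 alternatives, with adjusted p up to 0.316 (without library 1 lacking DOX); the others were WT line 1 or line 2 alone (0.0857 and 0.0791), the compared groups alone (0.0561), and leaving out DOX replicate 1 (0.0513) or 1 of 3 WT line 1 libraries (0.0558 to 0.0976). Pdzd2, a PDZ-domain protein gene, had 53.5 and 47.2 CPM without DOX and 49.9 and 46.4 CPM with it in TRIM24-KO cells, a log2 change of -0.06. WT line 1 went from 14.2 and 12.2 CPM to 17.1 and 16.8 CPM (log2 0.36) and WT line 2 from 3.25 and 3.0 CPM to 14.1 and 12.2 CPM (2.07). The difference from the mean of both lines was -1.28 ± 0.14, and from WT line 1 alone -0.42 (adjusted p = 0.530). Arap2, a GTPase-activating protein gene (-1.42), Pglyrp1, a peptidoglycan recognition protein gene (-1.88), and the pseudogene Olfr1372-ps1 (-1.16) also differed. Against WT line 1 alone, Pdzd2, Arap2, Pglyrp1 and Olfr1372-ps1 were not called (adjusted p from 0.124 to 0.530).

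Members of the pathway lists that differed were Dppa2 (0.64 ± 0.10), Id3 (1.38 ± 0.20), Rarg (0.54 ± 0.10), Skil (0.50 ± 0.10) and Prdm14 (-0.90 ± 0.18), beside Nupr1 and Duxbl1 above. Of these, Nupr1 kept its call in 22 of 22 alternatives, Id3 in 21, Dppa2 in 18, Prdm14 in 12, Skil in 8 and Rarg in 7. Prdm14 had 26.6 and 28.6 CPM in WT line 1 without DOX and 26.9 and 26.5 CPM with it, against the fall from 10.6 and 14.0 CPM to 5.80 and 7.24 CPM in TRIM24-KO cells. Tie1 had a smaller log2 change in TRIM24-KO cells (difference -2.53), with 1.32 and 0.928 CPM without DOX against 0.0485 to 0.451 CPM in the WT libraries, and 83.0 and 88.7 CPM with DOX against 47.7 to 77.3 CPM. WT line 2 was at the floor without DOX, and against WT line 1 alone the difference was -1.04 (adjusted p = 0.624). It was also not called without library 1 of TRIM24-KO cells lacking DOX (-2.26, adjusted p = 0.143). The count of differing genes was not stable: it was 18 higher and 11 lower without DOX replicate 2, where 15 of the 57 and 10 of the 13 were still called, and 34 and 2 against WT line 1 alone. Without WT line 1 library 1 or 2 lacking DOX it was 15 and 6 or 11 and 9, and without the TRIM24-KO libraries lacking DOX 15 and 6 or 19 and 12. Leaving out the libraries of WT line 1 with DOX gave 40 to 42 calls in all, and leaving out library 2 lacking DOX of WT line 2 gave 42. With RLE factors 28 genes were higher and 16 lower, and without CT010467.1 31 and 16.

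Among repeats, 12 of 965 subfamilies (1.24%) responded more negatively in TRIM24-KO cells than in the WT lines and 1 (0.104%), MER68, more positively (0.81 ± 0.19). RMER12B, an ERVK long terminal repeat, had 25.6 and 22.8 CPM without DOX and 16.4 and 17.9 CPM with it. WT line 1 went from 3.16 and 4.25 CPM to 7.84 and 8.93 CPM and WT line 2 from 4.22 and 4.23 CPM to 28.9 and 23.9 CPM. The log2 changes were -0.50, 1.17 and 2.64, and the difference was -2.41 ± 0.20 (adjusted p = 1.38e-06). ERVB4_2-LTR_MM changed by 2.69 against 3.59 and 6.58 (-2.40 ± 0.35), and ORR1A3 by 1.18 against 1.53 and 2.29 (-0.73 ± 0.12). Of the 12 subfamilies, 10 (83.3%) lay above all 4 WT libraries without DOX, against 17.6% of all tested subfamilies. MERVL-int changed by 7.88 against 7.07 and 9.04 and did not differ by the test (-0.18 ± 0.19, adjusted p = 0.671).

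The repeat difference depended on the WT line and on DOX replicate 2. Without that library 265 subfamilies were lower and 4 higher, and without DOX replicate 1 14 were lower and 14 higher. Leaving out WT line 2 library 1 lacking DOX gave 30 lower and 1 higher, and leaving out its DOX replicate 2 gave 21 lower and 0 higher. Against WT line 2 alone 135 were lower and 2 higher, and against WT line 1 alone 1 was lower and 4 higher. All 12 subfamilies were still called without DOX replicate 2, and 1 of the 12 against WT line 1 alone.

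**Figure D5:**
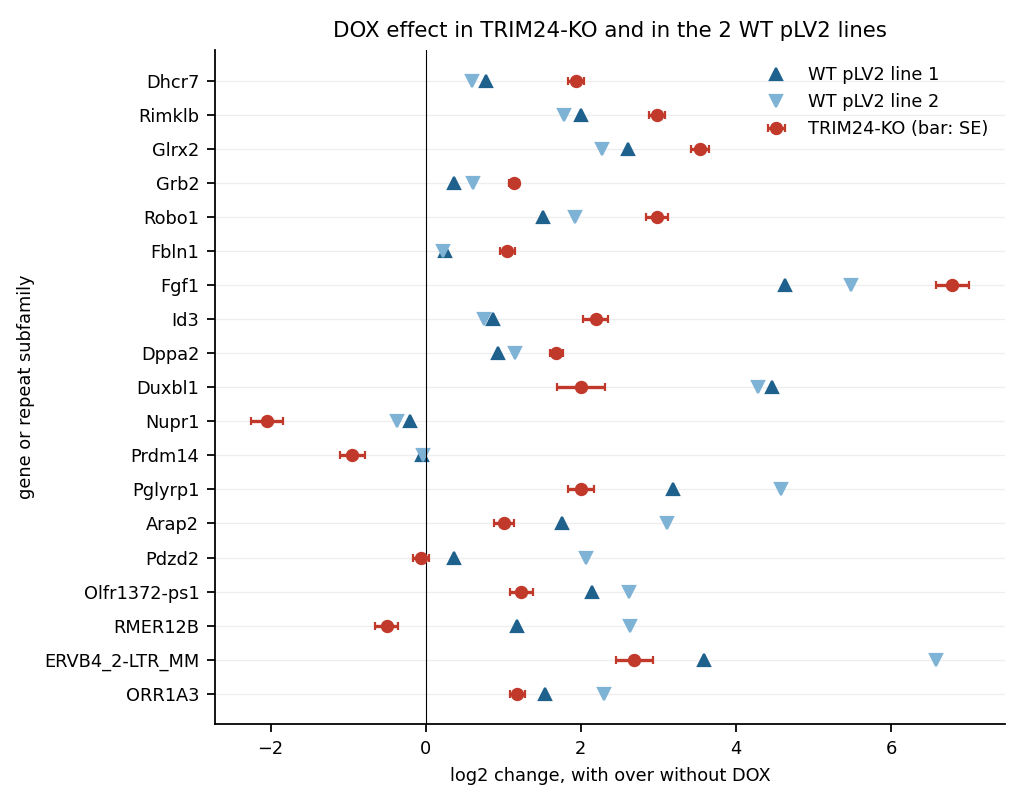
Log2 change with over without DOX for genes and repeats whose response differed, in TRIM24-KO cells (red) and in the 2 WT pLV2 lines (blue triangles). Red bars give the SE derived from the test's F value. The first 9 genes lie to the right of both WT lines and the others to the left, with Nupr1 at -2.05, Prdm14 at -0.94 and RMER12B at -0.50 in TRIM24-KO cells.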

How the data were processed

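The deposited tables hold the authors' raw counts per gene and per repeat subfamily. Reads were handled with bcl2fastq 2.20.0, cutadapt 1.18 and STAR 2.7.6a on mm10, per the submitters' processing notes; the counting tool and its treatment of reads with several matches are not given in the sources used here. Libraries were strand-marked, rRNA-depleted and read as 75 bp pairs, per the labels' protocols. The 16 pLV2 libraries, TRIM33-KO included for the spread, were fitted with 1 mean for each of 8 groups (edgeR 4.0.16, filterByExpr, TMM from genes, glmQLFTest, 2-sided). P-values were adjusted over genes and over repeats separately. The other 8 libraries were not used here. Of 55487 gene IDs, 260 matched no entry of GENCODE M21. Members and lists were chosen with earlier results of these data known. Named features were a set list, up to 3 rising and 3 falling members of each gene list (some given by direction only), and those with the smallest p, a mean of at least 50 counts and, for genes, no overlap between groups: 10 rising and 10 falling genes, 6 and 6 for the difference from WT, 6 and 6 repeats, 3 and 3 for their difference, fewer where fewer passed. Replicates differed by more than sampling noise, and not alike in all groups. Chi-square per degree of freedom between the libraries of a group, CT010467.1 included, was 324 in TRIM24-KO with DOX. It was 7.97 in TRIM24-KO without DOX and between 3.26 and 9.01 in the WT groups. Alternatives were other scaling (RLE, no CT010467.1, library sizes with repeats), filters, DESeq2 1.42.0, only the compared groups, a replicate block, a minimum fold, each WT line alone and each library left out.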

Additional observations from a re-analysis of the deposited data

Results flagged for a closer look

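The response to DOX in TRIM24-KO cells differed from the mean of both WT pLV2 lines, by the interaction test of edgeR at an adjusted p of 0.05, in the named features that follow, with the difference in log2 change given for each. It was more positive in TRIM24-KO cells for Dhcr7 (1.25), Rimklb (1.09), Glrx2 (1.09), Grb2 (0.65), Robo1 (1.26), Fbln1 (0.81), P4ha2 (0.63), Fbxo15 (0.60), Fgf1 (1.73), Dppa2 (0.64), Rarg (0.54), Id3 (1.38), Skil (0.50) and the repeat MER68 (0.81). It was more negative for Nupr1 (-1.76), Duxbl1 (-2.37), Tie1 (-2.53), Prdm14 (-0.90), Pdzd2 (-1.28), Arap2 (-1.42), Pglyrp1 (-1.88), Olfr1372-ps1 (-1.16) and the repeats RMER12B (-2.41), ERVB4_2-LTR_MM (-2.40) and ORR1A3 (-0.73). Fgf1 had 0.721 and 1.22 CPM without DOX and 95.9 and 122.6 CPM with it in TRIM24-KO cells, and 41.6 to 82.0 CPM in the 4 WT libraries with DOX.
Dhcr7, Rimklb, Glrx2, Grb2, Robo1, Fbln1, Nupr1 and RMER12B kept their call in 22 of 22 alternatives. P4ha2 kept it in 8, Fbxo15 in 11, Fgf1 in 12, MER68 in 10 and Tie1 in 20 of 22.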

How the results depend on the processing

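Of 159 named log2 changes, 102 kept their direction and side of the threshold under every alternative; over all alternatives 1928 values kept both, 212 lost the call, 9 gained it and 2 changed sign. The DOX effect on genes was called in 1347 genes at a log2 change of at least 1 and in 1789 with only the compared groups, and in 1938 to 2659 with 1 library left out. For repeats it was called in 308 subfamilies at that fold and in 432 to 552 with 1 library left out. The difference from WT was called in 27 genes at that fold, 44 with RLE factors, 224 with no filter, 39 with only the compared groups, 36 against WT line 1 alone, and 20 to 66 with 1 library left out. For repeats it was called in 4 subfamilies at that fold, 20 with RLE factors, 24 without CT010467.1, 118 with no filter, 42 with DESeq2, 5 against WT line 1 alone, 137 against WT line 2 alone, and 10 to 269 with 1 library left out. Left-out libraries leave a group with 1 library, which is then assumed to vary like the other groups. With no filter 2 single-copy 2-cell genes fell, and without CT010467.1 2 TIF1 genes did. Higher folds call fewer features by construction; for the other moves the cause was not tested. The log2 change of Duxbl3 was between -2.15 (without DOX replicate 2) and 1.63 (without DOX replicate 1), and that of Pdzd2, not called, between -0.18 and 0.0301. Same-numbered libraries deviated together with r = 0.118 in TRIM24-KO, 0.014 in WT line 1 and 0.195 in WT line 2, so the numbers were not taken as pairs. With a replicate block, 4030 genes and 559 repeats were called for DOX and 386 genes and 58 repeats for the difference from WT. With the block 2 single-copy 2-cell genes, 2 TIF1, 4 repressor, 4 retinoic acid, 7 TGF-beta, 4 interferon, 1 nucleolar, 5 cell cycle and 2 primitive endoderm genes fell, and 5 repressor, 2 TGF-beta, 1 glycolysis, 5 cell cycle and 4 primitive endoderm genes rose. Genes at 3 counts or fewer per library without DOX have folds that depth limits to lower bounds.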
